A study of Gallus gallus with 45 samples.

Results

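The genes described here carry the symbols of cytosolic ribosomal proteins, and nearly all of them encode proteins of the mature ribosome. They were chosen by symbol alone: every row of the deposited expression table whose symbol is RPL or RPS followed by a number, together with RPLP0, RPLP1 and RPLP2. RPSA was also looked for and is not a symbol of that table, and the RPS6 kinase genes were left out. The rule found 70 genes among the 18525 genes that had over 5 reads in some library. Of these 70 genes, 26 belong to the small and 44, RPL7L1 included by its symbol, to the large ribosomal subunit, and all 70 passed that filter on low values.

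The ribosome carries most of these proteins in matched amounts around its ribosomal RNA, and cells make the set together as their need for protein synthesis changes. In vertebrates the mRNAs begin with a short run of pyrimidines, the TOP motif, through which growth signals act on the translation of the whole set. Mutations in several of the genes cause Diamond-Blackfan anaemia in humans, and defects of ribosome production are known for their effect on the cranial neural crest.

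The 45 libraries are bulk RNA-seq of the midbrain-level neural plate border and neural crest of wild-type chick embryos without treatment, taken at 12 stages between gastrulation and the end of neurulation. The stages are HH5, HH6 and each somite number from 1 (1ss) to 10 (10ss), with 4 libraries per stage and 3 at 6ss, 8ss and 10ss. The libraries called 1ss here are titled HH7, a name used below only for the pool of 1ss to 3ss. Each library holds pooled tissue of several embryos, so that p-values measure the spread between pools. The dissected piece changed with age: patches beside the primitive streak at HH5 and HH6, then plate borders and fold tips, and dorsal neural tubes in the oldest embryos. The study also joined stages into HH7 (1ss to 3ss, n = 12), HH8 (4ss to 6ss, n = 11), HH9 (7ss to 9ss, n = 11) and HH10 (10ss, n = 3), beside HH5 (n = 4) and HH6 (n = 4).

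The libraries held 15354539 to 30501972 reads counted in genes. The paper gives a higher range for reads mapped uniquely to gene regions, and the difference was not examined here. CPM is a gene's reads scaled to library size, with the TMM factors described under processing. The summed level of 5 neural crest markers (PAX7, SOX9, SOX10, FOXD3 and TFAP2B) was 11.9 ± 3.15 CPM at HH5 (mean ± SD, n = 4) and 728 ± 180 at 10ss (SD, n = 3). That of 5 endoderm markers went from 104 ± 18.7 to 4.25 ± 1.61 CPM and that of 6 mesoderm markers from 139 ± 54.4 to 36.6 ± 18.4 CPM. The 8 blood and vessel markers together stood at 31.6 ± 5.22 and 38.3 ± 15.9 CPM, and single ones went both ways. LMO2 (mean 4.92 and 13.1 CPM) and CDH5 (0.898 and 5.72 CPM) were higher at 10ss, and KDR was lower (18.1 and 12.2 CPM). Most of the crest sum at 10ss lay in SOX10 (mean 358 CPM) and TFAP2B (337 CPM). The 5 neural plate markers together stood at 58.2 ± 16.6 and 131 ± 16.6 CPM, without overlap. Most of that rise lay in PAX6 (mean 3.31 and 49 CPM) and HES5 (0.724 and 26.5 CPM). SOX3 was at 17 and 21.5 CPM, SOX2 at 2.37 and 2.93 CPM, and OTX2 was lower at 10ss (34.8 and 30.7 CPM). At 10ss SOX17 (0.066 CPM) and TBX6 (0.0289 CPM) were near 0, whereas MEOX1 (29.6 CPM) and TBXT (6.44 CPM) of the mesoderm list and HHEX (2.78 CPM) of the endoderm list were still present. In pooled tissue, fewer cells of a type and less RNA per cell cannot be told apart, and the part of changing tissue makeup in the results below was not tested. A low share of reads in the 11 mitochondrially encoded genes set 3 libraries apart: 7ss replicate 3 (0.183%), 8ss replicate 3 (0.240%) and 10ss replicate 3 (0.274%), against 0.323% or more in each of the other 42.

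The ribosomal protein genes took 5.24% to 10.3% of all reads, and their joint level moved up and down over the stages without a steady trend. It was 6.36 ± 0.113% of reads at HH5 (SD, n = 4) and 8.21 ± 0.892% at HH6 (n = 4). It was 6.27 ± 0.720% at 1ss and 6.57 ± 0.958% at 2ss, then 8.19 ± 1.56% at 3ss and 8.58 ± 0.515% at 4ss. It was 7.31 ± 0.923% at 5ss and reached its highest mean at 6ss, 8.85 ± 1.24% (n = 3). The means at 7ss and 8ss were 6.48 ± 1.25% and 6.66 ± 1.23%, those at 9ss and 10ss 8.34 ± 1.04% and 7.55 ± 1.52%. The 4 HH5 libraries lay within 6.24% to 6.47%, below each HH6 library (7.01% to 9.17%), whereas the libraries of every other pair of neighbouring stages overlapped. No p-value is given for this share, since it is a score over chosen genes.

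**Figure D1:**
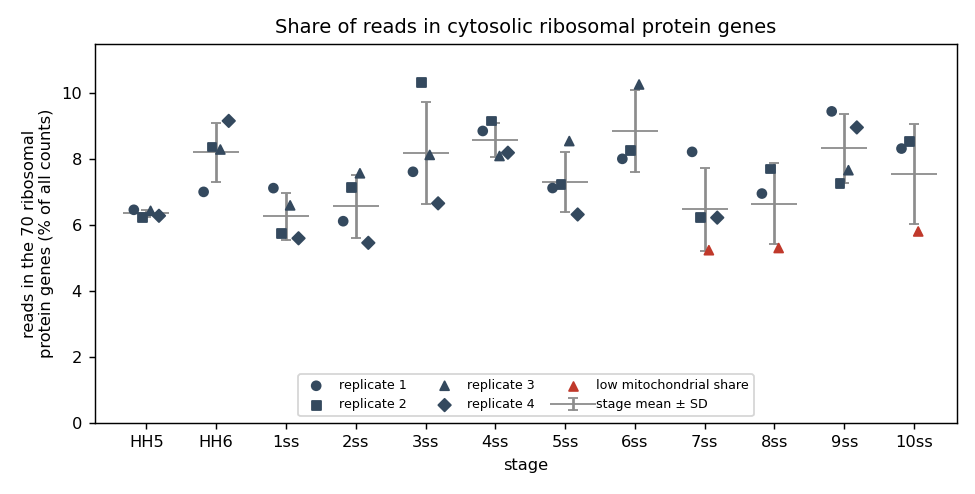
Reads in the 70 ribosomal protein genes as a percent of all counts (y axis) in each of 45 libraries by stage (x axis). Marker shapes give the replicate number, grey bars the stage mean ± SD, and red the 3 libraries with less than 0.3% of reads in mitochondrially encoded genes, each of which is the lowest library of its stage.

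The joint course was measured as the median over the genes of log2 CPM centred on each gene's own mean. It ran from -0.70 in 7ss replicate 3 to 0.65 in 3ss replicate 2, a 2.56-fold range. Stage accounted for 44.6% of its variance, with a within-stage SD of 0.28. That share is not adjusted for the number of stages, and groups this small take up part of the variance by chance alone. In 14 of the 45 libraries more than 90% of the genes lay on the same side of their own means. The courses of the small and the large subunit differed by at most 0.27 in any library. The lowest library of 7ss, 8ss and 10ss was in each case the 1 with the low mitochondrial share. The course was also low in 2ss replicate 4 (-0.65), whose mitochondrial share of 0.323% was the next lowest. Replicate 4 was the lowest library at HH5 and at each stage from 1ss to 5ss. Its mitochondrial share was 0.641% at HH5, 0.471% at 1ss, 0.366% at 3ss, 0.5475% at 4ss and 0.3855% at 5ss. That share was the lowest of its stage at HH5, 2ss, 3ss and 5ss, and not at 1ss or 4ss. What sets the low libraries was not tested.

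Gene by gene, 39 of the 70 (55.7%) differed over the 12 stages at an adjusted p below 0.05 (edgeR's quasi-likelihood test, Benjamini-Hochberg over all genes), where 43.7% of all genes tested did. They were 28 of the 44 genes of the large and 11 of the 26 genes of the small subunit. The smallest adjusted p belonged to RPL7L1 (1.32e-08), followed by RPL10A (1.27e-05) and RPL11 (7.41e-05). Among the genes with most reads, RPL32 (2303 CPM on average, adjusted p = 0.00871) and RPL5 (1917 CPM, adjusted p = 0.0209) were both called. These are reads per gene and not per length, so that levels are not compared between genes. RPS26 (0 to 9 reads per library) and RPL3L (18 to 132 reads), a muscle form of RPL3 in mammals, were the 2 genes below 5 CPM.

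Few of these differences fell on a single step between neighbouring stages. Of 11 steps, only HH6 against HH5 held calls once p-values were adjusted over all genes and steps, where 0.199% of all such tests were called. They were RPL10A, RPL11 and RPL17, all higher at HH6, in a step where 0.534% of all genes were called higher. At other steps most members had the same sign without passing the test. At 7ss against 6ss the median log2 fold change was -0.53 (0.000704 over all genes), with 64 of the 70 genes negative. In that step 44 genes were lower and 1 higher at an unadjusted p below 0.05, where 800 and 944 of all 18525 genes were. Of the 70 genes 0 passed the adjustment (0.027% of all genes called lower). The members share these libraries and a joint course, so that the 44 are not independent results. At 3ss against 2ss the median was 0.42 with 68 genes positive, and at 1ss against HH6 it was -0.41 with 67 negative. Leaving out single libraries took the 3 calls to between 0 (without HH5 replicate 2 or HH6 replicate 4) and 8 (without HH6 replicate 1). It took them to 1 without HH5 replicate 1 or HH6 replicate 2, and to 5 without 7ss replicate 1.

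At HH6 against HH5 the median log2 fold change of the 70 genes was 0.43 (0.00492 over all genes) and 67 were positive. Of the 70 genes 3 were called higher and 0 lower, where 0.896% of all genes were called higher and 0.799% lower. RPL10A was 1.00 ± 0.22 higher on the log2 scale (SE, adjusted p = 0.00873), RPL11 0.98 ± 0.23 (adjusted p = 0.0177) and RPL17 0.97 ± 0.24 (adjusted p = 0.0230), all by edgeR's quasi-likelihood test. These 3 also passed the study's fold threshold of 0.75, where 0.626% of all genes did. The HH6 libraries lay wholly above the HH5 libraries for 27 of the 70 genes, against 5.39% of all genes. HH6 replicate 4 held the highest value of RPL10A and RPL11 at that stage, and without it 0 genes were called and RPL10A was at 0.74 (adjusted p = 0.121). The count was 1 without HH5 replicate 1, HH5 replicate 2 or HH6 replicate 2. It was 14 without HH6 replicate 1, 6 without 3ss replicate 2, and 5 when either 5ss replicate 1 or replicate 3 of 7ss or of 10ss was left out.

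At HH7 against HH6 the median was -0.21 with 62 genes negative, and the only call was RPL7L1, higher by 0.30 ± 0.08 (SE, edgeR, adjusted p = 0.0334). Of all genes, 0.502% were called higher and 1.19% lower. That call was lost without HH6 replicate 1 (adjusted p = 0.189) and without HH6 replicate 2 (adjusted p = 0.104). At HH8 against HH7 the median was 0.24 and 62 genes were positive. Of these, 4 were called higher, where 7.67% of all genes were: RPL21 (0.62 ± 0.17, adjusted p = 0.00769), RPL22L1 (0.53 ± 0.13, adjusted p = 0.00385), RPL10A (0.37 ± 0.13, adjusted p = 0.0412) and RPL9 (0.27 ± 0.10, adjusted p = 0.0451). The calls of RPL21 and RPL22L1 were kept without each single library in turn, and those of RPL10A and RPL9 were lost in 10 and 17 of 45 such fits. The count was 24 without 3ss replicate 2, the library with the highest joint level, and 9 without 5ss replicate 4. It was 2 without any of the 4 libraries of 1ss, 2ss replicate 1, 4ss replicates 2, 3 or 4, or 6ss replicates 2 or 3.

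At HH9 against HH8 the median was -0.20 and 62 genes were negative. The comparison shares the HH8 libraries with HH8 against HH7, so that opposite signs in them are not independent results. Of the 70 genes 4 were called lower, where 7.22% of all genes were. RPL6 fell by 0.43 ± 0.10 (edgeR, adjusted p = 0.00198), and its call was kept without each single library in turn. The calls of RPL21 (-0.48 ± 0.17, adjusted p = 0.0451), RPL3 (-0.36 ± 0.12, adjusted p = 0.0357) and RPS24 (-0.32 ± 0.11, adjusted p = 0.0463) were lost in 14, 8 and 15 of the 45 fits without 1 library, and also without the 3 libraries of low mitochondrial share, with adjusted p of 0.134, 0.0926 and 0.127. Without single libraries the log2 fold changes stayed between -0.57 and -0.37 for RPL21, -0.41 and -0.29 for RPL3, and -0.37 and -0.28 for RPS24. With RPL7L1 counted, the 5 calls became 3 without HH5 replicate 2, 4ss replicates 1 or 4, or 7ss replicates 2 or 3. They became 2 on leaving out any of 4ss replicates 2 and 3, 6ss replicate 3, 7ss replicate 4, 8ss replicate 3 and 9ss replicates 2 and 3. RPL7L1 went the other way and was higher by 0.26 ± 0.06 (adjusted p = 0.000845, with 7.91% of all genes called higher). At HH10 against HH9 edgeR called 0 members, as did DESeq2, where 0.232% of all genes were called higher and 0.140% lower by edgeR. At an unadjusted p below 0.05 (edgeR) 1 member was higher and 0 lower, beside 943 and 1057 of all 18525 genes. The median of 0.11 was -0.02 without 10ss replicate 2 and 0.28 without 10ss replicate 3.

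**Figure D2:**
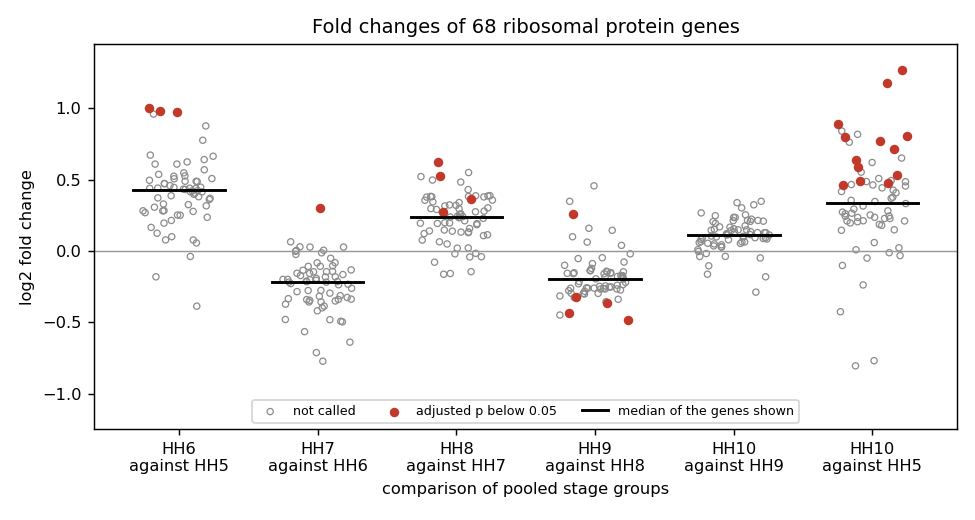
Log2 fold changes (y axis) of the 68 ribosomal protein genes with a mean of at least 5 CPM in 6 comparisons of pooled stage groups (x axis), each point a gene. Filled red points passed an adjusted p of 0.05 and black lines are medians. The cloud lies above 0, below it, above it and below it again in the first 4 comparisons, and HH10 against HH5 has the widest spread. Neighbouring comparisons share a stage group, so that their signs are not independent.

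Over the whole period, HH10 against HH5, the median log2 fold change was 0.34 (-0.07 over all genes), and 13 of the 70 genes were called higher and 0 lower. This share is to be read against 10.4% of all genes called higher and 10.7% called lower. The 13 genes are 10 of the large and 3 of the small subunit, and include RPL10A, RPL11, RPLP0, RPL7L1, RPL17, RPL9, RPS3, RPL7A, RPS3A, RPL13, RPL7 and RPL8. Without 10ss replicate 3 RPS3A was at 0.47 (edgeR, adjusted p = 0.0829) and RPL8 at 0.28, and both calls were lost. Those of RPLP0 and RPL7 were also lost without that library, as given below. The RPL8 call was lost without HH5 replicate 2 as well, and the RPL13 call in 6 of 45 fits without 1 library. The calls of RPL9, RPS3 and RPL7A were kept under each of 54 alternatives. The 3 libraries of 10ss lay above the 4 of HH5 for 19 of the 70 genes, against 15.4% of all genes. The median was 0.54 without 10ss replicate 3 and 0.19 without 10ss replicate 2, and the count was 8 without HH5 replicate 2. The comparison shares the HH5 libraries with HH6 against HH5 and the 10ss libraries with HH10 against HH9.

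Of the 13 genes 6 passed the fold threshold, where 7.20% of all genes did so upward. RPL10A, a large subunit protein that in mouse embryonic stem cells is not present on every ribosome, had 694, 564, 599.8 and 787 CPM in the 4 HH5 libraries. In the 3 libraries of 10ss it had 1570, 1340 and 1873 CPM, and 822, 1354, 1147 and 1971 CPM at HH6. The groups at HH5 and 10ss did not overlap, and the rise of 1.27 ± 0.23 (edgeR, adjusted p = 4.22e-05) was kept under each of 54 alternatives.

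RPL11, which with RPL5 and the 5S RNA can bind MDM2 and thereby raise p53, had 309, 299.8, 292 and 405 CPM at HH5 and 839.8, 627 and 749.8 CPM at 10ss. Every 10ss library was above every HH5 library, and the rise of 1.18 ± 0.25 (edgeR, adjusted p = 0.000365) was likewise kept under each of 54 alternatives.

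RPL17, a protein near the exit of the ribosome's peptide tunnel, had 453, 487, 591 and 617 CPM at HH5 and 1020, 991 and 740.0 CPM at 10ss. It was highest at HH6 (835, 1361, 803 and 1216 CPM), above each 10ss library in 2 of 4 libraries. The rise from HH5 to 10ss was 0.77 ± 0.26 (edgeR, adjusted p = 0.0257). It was 0.71 to 0.91 over the fits that left out 1 library, and the call was lost without HH5 replicate 1, HH5 replicate 2, 10ss replicate 1 or 10ss replicate 2 (adjusted p = 0.0680 to 0.0845). A further 2 rows of the table are described as RPL17 or like it, so that reads may be split among these copies. They averaged 92.9 and 2.44 CPM, and neither was called between HH5 and 10ss (adjusted p = 0.915 and 0.929).

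RPLP0, the base of the stalk that recruits translation factors to the large subunit, had 394, 348, 374 and 429 CPM at HH5 and 659, 471 and 1017 CPM at 10ss. The value of 1017 came from 10ss replicate 3, where the joint level was low. The rise was 0.89 ± 0.24 (edgeR, adjusted p = 0.00565), and without that library it was 0.55 (adjusted p = 0.157).

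**Figure D3:**
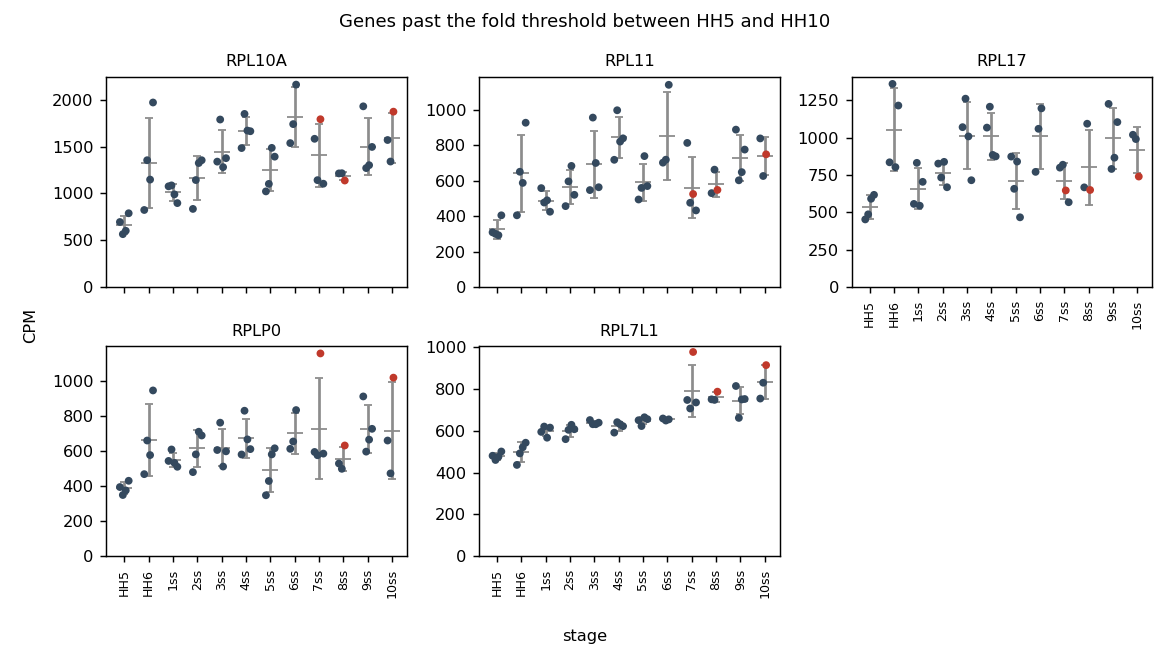
CPM (y axis, from 0) of 5 genes past the fold threshold between HH5 and HH10 (RPL10A, RPL11, RPL17, RPLP0 and RPL7L1), by stage (x axis), each point a library and grey bars the stage mean ± SD. Red marks the 3 libraries with a low mitochondrial share. RPL7L1 has the narrowest spread at HH5 and 6ss, and in all 5 genes every 10ss library lies above every HH5 library.

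RPL7L1 had the smallest adjusted p of the set over the stages. The protein resembles RPL7 and is not part of the mature ribosome, and its yeast relative Rlp7 acts in the assembly of the large subunit. It had 480.3, 460.1, 475 and 501 CPM at HH5 and 437, 492, 521 and 543 CPM at HH6. Between 1ss and 6ss its stage means lay between 599 and 654 CPM, and the SD was 9.45 CPM at 3ss (n = 4) and 4.92 CPM at 6ss (n = 3). Its means at 7ss, 8ss and 9ss were 792, 762 and 744 CPM, the first of them with replicate 3 at 977 CPM. At 10ss it had 754, 829.9 and 914 CPM, with no overlap with HH5, and the rise of 0.80 ± 0.10 had the smallest adjusted p of all members in this comparison (edgeR, 3.89e-08). It was the only member called higher at both HH7 against HH6 and HH9 against HH8, the 2 comparisons in which the median of the set was below 0. RPL7 itself, a protein of the mature large subunit, went from 1250, 1099, 1236 and 1327 CPM at HH5 to 1576, 1460 and 2086 CPM at 10ss (0.48 ± 0.17, adjusted p = 0.0343). That call was lost without HH5 replicate 2 (adjusted p = 0.0929) or 10ss replicate 3 (0.31, adjusted p = 0.283).

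Genes that depart from the joint course were looked for by scaling the libraries to the members themselves, so that a gene moving with the set shows no change. On this scale 14 of the 70 genes differed over the stages (edgeR, adjusted p below 0.05), where 48.5% of all genes did. The members set this scale, which by itself lowers their share. The shares of all genes on it are therefore no baseline for the members. The adjustment ran over all genes, and for RPL8 it took an unadjusted p of 0.0192 to 0.0418 (edgeR). The 14 genes included RPS28, RPS19, RPL10A, RPL7L1, RPS2, RPL11, RPS20, RPL21, RPLP1, RPL8, RPL39L, RPL22L1 and RPL35. The count was 9 without HH5 replicate 1, 2 or 3. The calls of RPS28, RPS19, RPL7L1, RPS20, RPL21 and RPL22L1 were kept under each of 53 alternatives, and that of RPS2 was lost under 1 (without the libraries numbered 4, adjusted p = 0.0568). Those of RPL10A, RPL11 and RPL8 were lost in 18 to 30 of the 45 fits that left out a library. Those of RPL39L, RPL35 and RPLP1 were lost in 12, 4 and 2 such fits. At HH10 against HH5 on this scale 4 genes were higher, where 3.54% of all genes were, among them RPL10A, RPL11 and RPS20. RPS19, RPLP1 and RPL27 were lower, where 11.6% of all genes were. That count of 7 was 3 without 10ss replicate 3, 4 without 10ss replicate 1 or without HH5 replicate 1, 2 or 3, and 11 without 7ss replicate 3. The HH10 against HH5 calls of RPS20 and RPL27 on this scale were lost under 27 and 23 of 53 alternatives.

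The gene with the largest range of stage means after subtraction of the median course was RPS28, a small protein near the mRNA exit of the small subunit, with a range of 1.95 on the log2 scale. Its level was highest at HH5, with 236, 424, 463 and 164 CPM, and lowest at 5ss, with 52.7, 103, 169.9 and 61.4 CPM. HH6 replicate 4 had 38.2 CPM beside 337, 336 and 272 CPM in the other HH6 libraries. Replicate 4 was also the lowest at HH5, 1ss, 2ss, 4ss and 7ss, with 43.3 CPM at 2ss beside 147 to 206 CPM in the other libraries. On the TMM scale RPS28 was not called over the stages (edgeR, adjusted p = 0.121), and relative to the members it was (adjusted p = 0.00616).

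RPS19, which is the gene most often mutated in Diamond-Blackfan anaemia, had a range of 1.10 after subtraction. It had 1182, 1053, 1190 and 549.5 CPM at HH5 and 619.8, 807 and 322 CPM at 10ss, and these groups overlapped. Replicate 4 was the lowest for RPS19 at every stage from HH5 to 5ss and at 7ss. At 2ss it had 185 CPM beside 587 to 795 CPM in the other libraries. Scaled to the members RPS19 fell by 1.11 ± 0.33 between HH5 and 10ss (edgeR, adjusted p = 0.0152). That call was lost without 10ss replicate 1 or 3 (adjusted p = 0.0566 and 0.0795) and without the 3 libraries of low mitochondrial share (adjusted p = 0.0588), and on the TMM scale the change was -0.77 ± 0.46 (adjusted p = 0.245).

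RPL10A and RPL11 departed in the opposite direction, and mostly at the first stage. Their means after subtraction were -0.71 and -0.65 at HH5 and between -0.17 and 0.38 at every later stage. Relative to the members RPL11 was 0.93 ± 0.19 higher at HH10 than at HH5 (edgeR, adjusted p = 0.000430), with the call kept under each of 53 alternatives. RPL10A was 1.06 ± 0.24 higher (adjusted p = 0.00151), and without 10ss replicate 3 it was at 0.63 (adjusted p = 0.0847). RPS20, a protein of the small subunit head, began at -0.49 at HH5 and was highest at 6ss, at 0.41.

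RPS2, a protein at the mRNA entry of the small subunit, ran between 0.42 at HH5 and -0.57 at 3ss after subtraction. At 5ss its 4 libraries had 201, 511, 554 and 212 CPM, so that the low mean there rested on replicates 1 and 4. RPS29 had a range of 0.88 but was not called (edgeR, adjusted p = 0.604): at 1ss its libraries had 789, 367, 369.9 and 245 CPM, a spread as wide as that between stages. At the other end, RPS10 and RPL23 followed the set most closely, with ranges of 0.12 and 0.14.

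**Figure D4:**
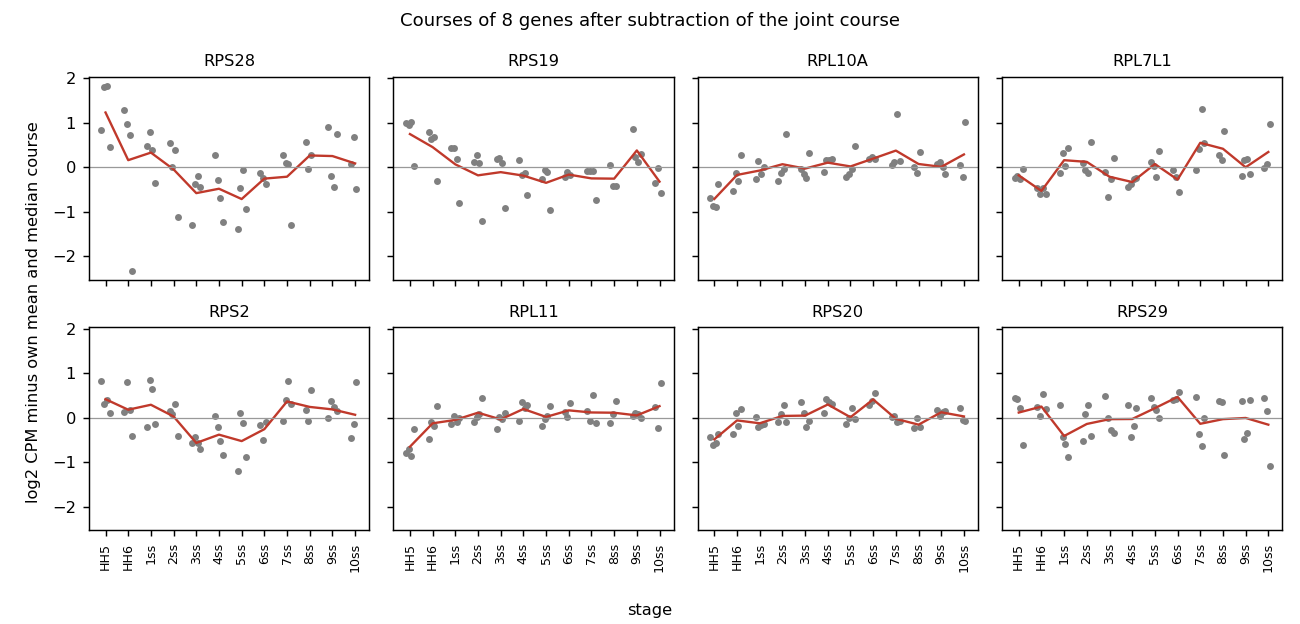
Log2 CPM after subtraction of each gene's own mean and of the median course of the 70 genes (y axis) by stage (x axis) for the 8 genes with the largest range. Grey points are libraries and red lines join the stage means. RPS28 and RPS19 start high at HH5, RPL10A and RPL11 start low, and RPS29 shows wide scatter within stages.

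Several genes are near copies of another member, and the values of such pairs are set side by side here. RPL22L1, a form of RPL22 that can take its place in the ribosome, had 398, 372, 379 and 365 CPM at HH5. It had 704, 661, 682 and 640.1 CPM at 4ss, without overlap with HH5. At 10ss it had 487, 754 and 347 CPM, which overlapped HH5, and it was not called at HH10 against HH5. RPL22L1 rose at HH8 against HH7 as given above, where RPL22 was at 0.30 ± 0.15 (edgeR, adjusted p = 0.187). Relative to the members RPL22L1 was called over the stages (adjusted p = 0.00228) and RPL22 was not (adjusted p = 0.738). The difference between the paralogs was not itself tested. RPS27L, a p53 target in human cells, was at 41.1 ± 8.29 CPM at HH5 and 34.8 ± 11.9 CPM at 10ss, and RPS27 at 221 ± 39.3 and 259 ± 153 CPM (SD, n = 4 and 3). Neither was called over the stages (edgeR, adjusted p = 0.373 and 0.160). RPL3L stayed between 0.904 and 5.55 CPM in all libraries (adjusted p = 0.0535), and RPL3, which helps form the peptidyl transferase centre, was called over the stages (adjusted p = 0.00744). RPL36AL, RPL39L and RPL26L1 have no parent row under the symbols RPL36A, RPL39 or RPL26 here. RefSeq gives the RPL36AL row the symbol RPL36A, so that this row may be the parent gene itself. RPL39L and RPL26L1 were called over the stages (edgeR, adjusted p = 0.00281 and 0.00817) and RPL36AL was not (adjusted p = 0.266).

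How strongly a gene followed the set depended on which gene it was, a pattern examined after seeing the data and described without a test. Each gene's log2 CPM was regressed on the median course of the other genes over the 45 libraries. A slope of 1 means that the gene moved as much as the set. The slopes of the 68 genes above 5 CPM ran from -0.01 to 1.89 with a median of 0.98. RPL7L1 (-0.01), RPL4 (-0.00278) and RPL8 (0.07) hardly moved with the others, and RPLP0 (0.23), RPL5 (0.28), RPS6 (0.28) and RPL7 (0.35) moved little. RPS21 (1.78), RPS29 (1.82) and RPL38 (1.89) moved most. Without the 3 libraries of low mitochondrial share the slopes of RPL7L1, RPL8, RPLP0 and RPL7 were 0.22, 0.28, 0.60 and 0.56, and that of RPL4 was -0.01. RPL4 and RPL8 are core proteins of the large subunit, and RPS6 is the small subunit protein that is phosphorylated by the S6 kinases.

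The slopes were in general larger for genes with a higher number in the symbol. The numbers were given by position on gels of rat ribosomal proteins, where lower numbers are in general larger proteins. The median slope was 0.44 for 15 genes with numbers 1 to 9, 0.94 for 19 genes with 10 to 19 and 1.20 for 31 genes with 20 and above. Of the 31, 0 had a slope below 0.5, against 9 of the 15. By subunit the 3 medians were 0.35, 0.69 and 1.22 in the large and 0.50, 1.03 and 0.97 in the small subunit, where the upper classes were not in that order. The Spearman correlation between slope and number was 0.73 over 65 genes, 0.59 in the small and 0.82 in the large subunit. These genes share the same libraries and are not independent. With stage means removed the 3 medians were 0.30, 0.91 and 1.26, and without the 3 libraries of low mitochondrial share 0.57, 1.02 and 1.22. The pooled medians kept the same order with stage means removed. The same measure between slope and mean CPM was -0.30 over the 68 genes. Transcript lengths were not used here, and what sets the order was not tested.

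**Figure D5:**
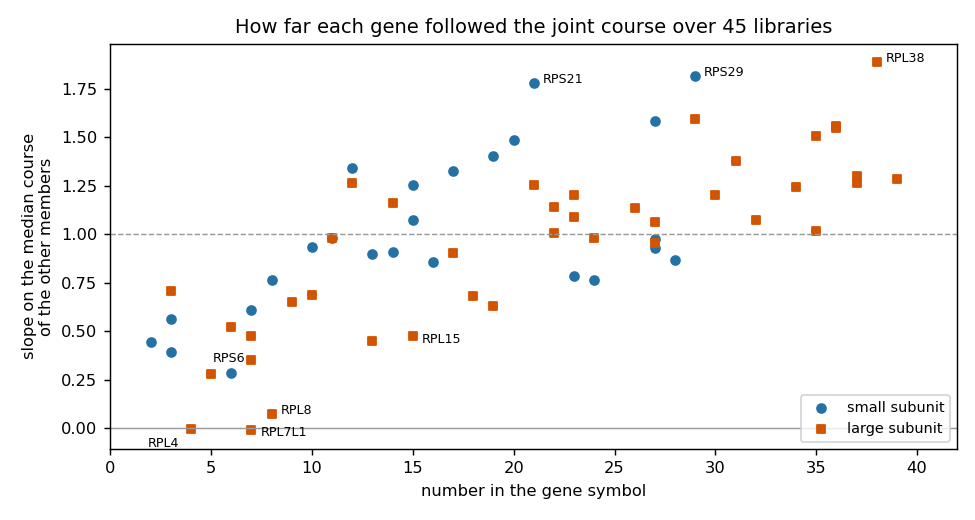
Slope of each gene's log2 CPM on the median course of the other ribosomal protein genes over 45 libraries (y axis) against the number in its symbol (x axis), for 65 genes, coloured by subunit. The dashed line at 1 marks a gene that moves as much as the set. Genes with numbers up to 9 lie below it, and most genes numbered 20 and above lie on or above it.

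In the smaller groups within the set some members passed the test and others did not. Of the 3 stalk proteins, RPLP0 rose between HH5 and 10ss, while its partners, which form the flexible arms of the stalk, gave -0.43 ± 0.34 for RPLP1 (edgeR, adjusted p = 0.412) and 0.21 ± 0.29 for RPLP2 (adjusted p = 0.665). RPLP1 had 973, 924, 870.5 and 555 CPM at HH5 and 748, 797 and 309 CPM at 10ss, and scaled to the members it fell by 0.79 ± 0.21 (adjusted p = 0.00594). That call was lost without 10ss replicate 3 (adjusted p = 0.0686). In a chosen list of 3 large subunit proteins that bind MDM2, as some other ribosomal proteins also do, RPL11 rose, and RPL5 and RPL23 gave 0.26 ± 0.15 (adjusted p = 0.214) and 0.27 ± 0.29 (adjusted p = 0.546). A chosen list held 10 measured genes known from human disease or mouse development, and RPL11 was not in it. Of these 10 genes 2 were called higher at 10ss than at HH5, RPL10A among them, and 0 lower, with a median of 0.44. Of all genes, 10.4% were called higher and 10.7% lower. The other 8 include RPL38, needed in mouse for normal patterning of the skeleton (0.41 ± 0.45, adjusted p = 0.572), and RPL24, whose mouse mutant Bst has a kinked tail and pigment defects (0.49 ± 0.23, adjusted p = 0.118). Also among them are RPS24 (0.18 ± 0.20, adjusted p = 0.579), RPS7 (0.47 ± 0.20, adjusted p = 0.0895), RPS10 (0.38 ± 0.23, adjusted p = 0.254) and RPL35A (0.51 ± 0.36, adjusted p = 0.345). The only negative value of the 10 was that of RPS19 (-0.77 ± 0.46, adjusted p = 0.245).

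Of 8 rows for parts of the ribosome that the symbol rule missed, 3 were called higher at HH6 than at HH5, beside 0.896% of all genes. RACK1, a scaffold on the small subunit listed as GNB2L1, had 816 ± 150 CPM at HH5 (SD, n = 4) and 1235 ± 257 at 10ss (n = 3), and was 0.73 ± 0.17 higher at HH6 than at HH5 (edgeR, adjusted p = 0.0166). FAU, which encodes RPS30 joined to a ubiquitin-like protein, was 0.92 ± 0.23 higher in that comparison (adjusted p = 0.0237), and RPS4Y1 0.57 ± 0.15 (adjusted p = 0.0387). The row of RPSA, listed under RPSAP58 with 6303 CPM on average, gave 0.68 ± 0.20 (adjusted p = 0.0626). RPS25, known here only by its description, gave 0.16 ± 0.37 (adjusted p = 0.905).

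Of 12 translation factors and other genes whose mRNAs carry a TOP motif, 6 were called over the stages, and their median course lay on the same side of its mean as that of the ribosomal proteins in 35 of 45 libraries. Of the 12 TOP genes 3 were called higher and 1 lower at 10ss than at HH5, where 10.4% of all genes were called higher and 10.7% lower. TPT1 rose from 804 ± 50.9 CPM at HH5 to 1648 ± 386 at 10ss (1.04 ± 0.20, edgeR, adjusted p = 0.000139). EIF3E was higher by 0.87 ± 0.17 (adjusted p = 0.000103) and EEF1B2 by 0.51 ± 0.16 (adjusted p = 0.0202), and EIF4B was lower (-0.93 ± 0.31, adjusted p = 0.0257). For 66 mitochondrial ribosomal proteins, 34 of them called over the stages, the courses shared a side in 33 libraries. For 43 genes of ribosome biogenesis, 30 of them called, they did so in 19 libraries, and for 15 other initiation factors, 10 of them called, in 16. Over all genes 43.7% were called over the stages.

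Ribosome biogenesis genes, which make and process ribosomal RNA in the nucleolus, had medians of the opposite sign to the ribosomal proteins in 3 comparisons, at HH10 against HH9 with a median of -0.02 and 0 calls. At HH8 against HH7, 13 of the 43 were called lower and 1 higher, with a median of -0.19 beside 0.24 for the ribosomal proteins (7.28% of all genes called lower). At HH9 against HH8, 15 were called higher and 2 lower, with a median of 0.13 beside -0.20 (7.91% of all genes called higher and 7.22% lower). Both comparisons share the HH8 libraries. At HH10 against HH5 the median of the 43 was 0.08, with 5 called higher and 2 lower. Of all genes, 10.4% were called higher and 10.7% lower there. Among the 5 called higher was POLR1C (0.68 ± 0.18, edgeR, adjusted p = 0.00397), and among the 2 called lower DDX10 (-1.28 ± 0.29, adjusted p = 0.000962). NCL, the nucleolar protein nucleolin, was not called. It had 1384 ± 84.4 CPM at HH5 and 930.1 ± 336 CPM at 10ss (-0.57 ± 0.22, edgeR, adjusted p = 0.0550). All of these values are relative to the other reads of each library, and the CPM values and fold changes are also TMM-scaled. None of them measures RNA per cell. A rise of some genes can lower the values of others without any change in their RNA per cell.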

How the data were processed

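The authors mapped paired reads of libraries from a kit that keeps no strand with STAR (version 2.7.2a in the submitters' processing notes, which also name GRCg6a; the paper gives another version) and deposited counts, whole reads per gene without normalization, for 24356 genes. The annotation release and the handling of reads that map to several genes are not given in the sources used here, and many ribosomal protein genes have copies or host small nucleolar RNA genes. The authors also deposited a table of the 18525 genes that had over 5 reads in some library, and a scaled signal, CPM after trimmed mean of M-values (TMM) scaling, which was recomputed with a largest difference of 5.09e-11. The replicate numbers are those of the titles; in the count columns 10ss replicates 2 and 3 carry numbers 3 and 4. The labels do not tell which library was on which sequencing run.

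Members and lists were chosen with earlier results of these data known. Counts were analysed in R 4.3.3 with edgeR 4.0.16 (TMM, quasi-likelihood test, Benjamini-Hochberg adjustment over all 18525 genes), with 1 fit of 12 stages, 1 of 6 pooled groups and the same fits with library size and TMM factors computed over the members alone. Log2 CPM used a prior count of 2. Calls were made at an adjusted p below 0.05, and a second rule added an absolute log2 fold change above 0.75. The method was tested on simulated counts drawn separately for each gene, without a joint course of the members. How it performs under such a course was not tested. Alternatives were DESeq2 1.42.0, other filters and scalings, a replicate block and leaving out libraries. Replicate pairs differed by 20.5 to 139 times the sampling variance (chi-square per degree of freedom, 63 pairs), so none was a repeat deposit. Named genes were the 8 of largest range after the joint course, the 3 of smallest range, the 3 of highest CPM, all paralog pairs, genes past the fold threshold, genes below 5 CPM and the lists of stalk, MDM2-binding and disease genes; others were named after their values were seen. Of the 70 members 69 matched the RefSeq gene table by gene identifier, and 2 of these carry another symbol there. RPL36AL is named RPL36A, and RPL37A is named SMARCAL1, which is not a ribosomal protein symbol. The symbols of the deposited table were kept. DNA and protein sequences were not used here, and some members and results are not reported here.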

Additional observations from a re-analysis of the deposited data

Results flagged for a closer look

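Among 108 sets of 4 libraries of a stage (the joint share and 11 named genes), 3 had a library whose gap to its neighbours passed Dixon's criterion, and chance alone flags about 1 in 20. In 7ss replicate 3, RPLP0 was at 1155 CPM against 575 to 594 in the other 7ss libraries, and RPL7L1 at 977 CPM against 707 to 747. That library has the lowest mitochondrial share and the lowest joint level of the ribosomal proteins, and the part of either in these values was not tested. In HH5 replicate 4, RPL11 was at 405 CPM against 292 to 309 in the other HH5 libraries.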

How the results depend on the processing

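No called gene changed direction under the alternatives run. The median log2 fold change at HH10 against HH9 went from 0.11 to -0.02 without 10ss replicate 2. The mean joint course, on the log2 scale, changed sign at 5ss (from -0.06 to 0.04 without 5ss replicate 4, 0.0079 without the libraries numbered 4) and at 10ss (from 0.03 to -0.10 without 10ss replicate 2, -0.07 without 10ss replicate 1, -0.02 with library totals, -0.0048 without the libraries numbered 4). The replicate block gave 5 calls between consecutive stages, 6 at HH6 against HH5 (5 past the fold threshold) and 22 departing genes. The labels do not say that a replicate number marks shared embryos or a shared day, and 105 of 234 same-numbered pairs of libraries had a correlation of deviations above 0.1, with 22 of 45 libraries closest to their own number. Pairs that both carry number 4 had a median correlation of 0.45 (36 pairs). Over all same-numbered pairs, these 36 included, the median was 0.06, and over pairs of different numbers it was -0.02. In the count columns 10ss replicates 2 and 3 carry numbers 3 and 4, so that under that numbering 10ss replicate 3 would count with number 4; the block and the fits without the libraries numbered 4 used the titles. Adjusting within each step gave 12 calls. Without the libraries numbered 4 there were 0 calls at HH6 against HH5 (0 past the fold threshold), 0 at HH7 against HH6 and 2 at HH8 against HH7. Without the 3 libraries of low mitochondrial share, chosen after seeing the data, there were 7 (5 past the fold threshold) at HH6 against HH5, 9 at HH8 against HH7 and 2 at HH9 against HH8. With only the groups compared there were 9 (6 past the fold threshold) at HH6 against HH5 and 0 at HH7 against HH6. DESeq2 gave 5 at HH6 against HH5, 7 at HH8 against HH7, 22 departing genes and 12 departing at HH10 against HH5. Library totals without scaling gave 7 at HH8 against HH7 and 3 past the fold threshold at HH10 against HH5, and no filter gave 3 at HH9 against HH8.

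Leaving out single libraries gave 35 to 56 genes over the stages, 0 to 8 between consecutive stages, 0 to 14 at HH6 against HH5 (0 to 6 past the fold threshold), 0 to 1 at HH7 against HH6, 2 to 24 at HH8 against HH7, 2 to 6 at HH9 against HH8 and 8 to 15 at HH10 against HH5 (4 to 8 past the fold threshold). Departing genes numbered 9 to 19 over the stages and 3 to 11 at HH10 against HH5. The cause of these shifts was not tested. The 3 libraries of 10ss and the within-stage SD of 0.28 in the joint course limit what could be detected.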
